A study of Mus musculus with 7 samples.

Results

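Hmox1, Nqo1, Gclc, Gclm, Gstm1, Txnrd1, Srxn1, Sod1, Sod2 and Cat are antioxidant genes, most of them known targets of the transcription factor Nrf2. All 10 were measured, out of 18193 genes in all. They were taken by symbol from the platform annotation, which assigns 28 probe sets to one of them alone. A probe set is a group of short probes that together report 1 transcript. The probe set that is brightest on average over the arrays leads each gene.

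RNA of plantaris muscle, a calf muscle, was measured on 7 arrays from Pax7-DTA mice aged 4 months. All groups carry both parental alleles, Pax7-CreER and Rosa26-DTA: tamoxifen activates Cre where Pax7, which marks satellite cells (the stem cells of muscle), is expressed, and switches on a toxin there. Vehicle sham and tamoxifen sham are 1 array each, both of a male. Vehicle overload has 2 arrays (replicate 1 female, replicate 2 male) and tamoxifen overload has 3 (replicates 1 and 2 male, replicate 3 female), all taken 1 week after surgery, in which synergist muscles are removed so that the plantaris carries their load. No mice without the toxin allele are among the arrays, so an effect of tamoxifen itself and of losing satellite cells cannot be told apart. The titles read as single mice and the series' design text as pooled muscles, so p-values measure the spread between these arrays, whatever animals stand behind them.

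Nrf2, encoded by Nfe2l2, is held in the cytoplasm and marked for breakdown by Keap1. Oxidants and electrophiles modify Keap1, after which Nrf2 enters the nucleus, pairs with small Maf proteins and binds antioxidant response elements. Its targets make and use glutathione, reduce thioredoxin and quinones, and break down haem. The superoxide dismutases convert superoxide to hydrogen peroxide, and catalase removes the peroxide. In muscle, contracting fibres, mitochondria and invading immune cells all produce these oxidants.

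The core of the antioxidant response element, TGACNNNGC, was looked for on both strands from 250 bases before to 50 bases after each start site in RefSeq promoters (build GRCm38.p6). Promoter sequence was at hand for 8 of the 10 genes, and the letters stood in 4 of them: Gclm, Txnrd1, Sod1 and Srxn1. Txnrd1 has 3 promoters in the table, and 1 of them holds the letters. Over all genes with a promoter sequence 14.0% hold the motif, and over all promoters of this length 12.4%. In Srxn1 it lies at positions 29 to 37 after the start, and upstream of that start the related letters TGAGTCA, found in 5.2% of all promoters, occur at 2 places. These matches are descriptions of the letters and not mapped binding sites. The stretches below lie upstream of the start and hold TGACNNNGC in Gclm, Sod1 and Txnrd1 and TGAGTCA in Srxn1. They are shown because they come both from genes called lower with overload (Sod1, Txnrd1) and from genes that did not pass the test (Gclm, Srxn1). Capitals mark TGACNNNGC, read on the opposite strand, in the first 3 and TGAGTCA in the last. They lie at chr3:122245387-122245466, chr16:90220671-90220750, chr10:82859079-82859158 and chr2:152105410-152105489, all on the plus strand.
Gclm: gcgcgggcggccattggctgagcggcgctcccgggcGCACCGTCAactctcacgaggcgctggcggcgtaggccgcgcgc
Sod1: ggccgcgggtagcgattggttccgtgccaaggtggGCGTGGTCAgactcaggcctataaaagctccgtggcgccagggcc
Txnrd1: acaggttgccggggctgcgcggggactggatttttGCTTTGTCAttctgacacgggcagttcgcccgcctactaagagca
Srxn1: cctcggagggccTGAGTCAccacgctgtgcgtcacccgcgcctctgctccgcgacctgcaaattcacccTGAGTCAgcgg

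Signals are linear array intensities, which the authors scaled as a whole per array. The median signal of an array was 88.2 to 127.7. A level counts as background at or below a signal of 54.8, the 95th percentile of 75 olfactory, vomeronasal and taste receptor genes. Of the markers of muscle fibres, Ckm and Acta1 were bright on every array (signals from 23265 to 34422). Pax7 read 92.8 and 41.2 in vehicle and tamoxifen sham, 274 and 349 in vehicle overload, and 57.9, 10.0 and 120 in tamoxifen overload. Differences below are log2 differences from limma with its moderated SE. Benjamini-Hochberg adjustment ran over 18193 genes, with calls at an adjusted p under 0.05. The model has a term for sex and gives both treatments equal weight, so its differences can depart from those of the plain group means. The sham groups hold 1 array each and were taken to have the spread of the overload arrays. With 7 arrays, precision is limited by their number.

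The first comparison asks how 1 week of overload changed these genes, as the mean over vehicle and tamoxifen (5 arrays of overload, 2 of sham). Of the 10 genes 1 rose, 6 fell and 3 did not pass. Hmox1 rose 3.62-fold. Gstm1 was 2.74-fold lower, Sod2 1.84-fold, Nqo1 1.81-fold, Txnrd1 1.66-fold, Gclc 1.54-fold and Sod1 1.44-fold. Cat, Gclm and Srxn1 did not pass. Over all genes 14.7% were called higher and 8.16% lower (22.9% in either direction), and the median difference was 0.07, against -0.57 over the 10 genes. Centring each array on its median shifted all genes by 0.37 and turned the calls over all genes from 2678 higher and 1485 lower to 1626 and 3455. Of the 10 genes 1 was called higher and 6 lower under that scaling too. On the arrays themselves, 1 gene lay higher on all overload than on both sham arrays and 6 lay lower, where 23.1% and 18.3% of all genes did. In bulk muscle, fewer cells of a type and less RNA per cell cannot be told apart. Markers of other cells moved in the same comparison. Of 9 fibroblast markers 7 rose (median 2.00, with the collagen gene Col1a1 highest at 3.0 ± 0.16), and their summed signal went from 34221 and 44017 in sham to between 96903 and 121380 in overload. Dcn, also among the 3 brightest of them, did not pass (0.11 ± 0.16). Of 5 adipocyte markers 3 fell (median -1.16), among them Adipoq (-1.16 ± 0.19), while their sum overlapped, at 13561 and 15944 in sham and 9747 to 16173 in overload. The female overload arrays had adipocyte sums of 16173 and 15333. The male overload arrays, at 9747 to 12202, lay below both sham arrays, which are of males. The part of fibroblasts and adipocytes in the differences of the 10 genes was not tested.

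**Figure D1:**
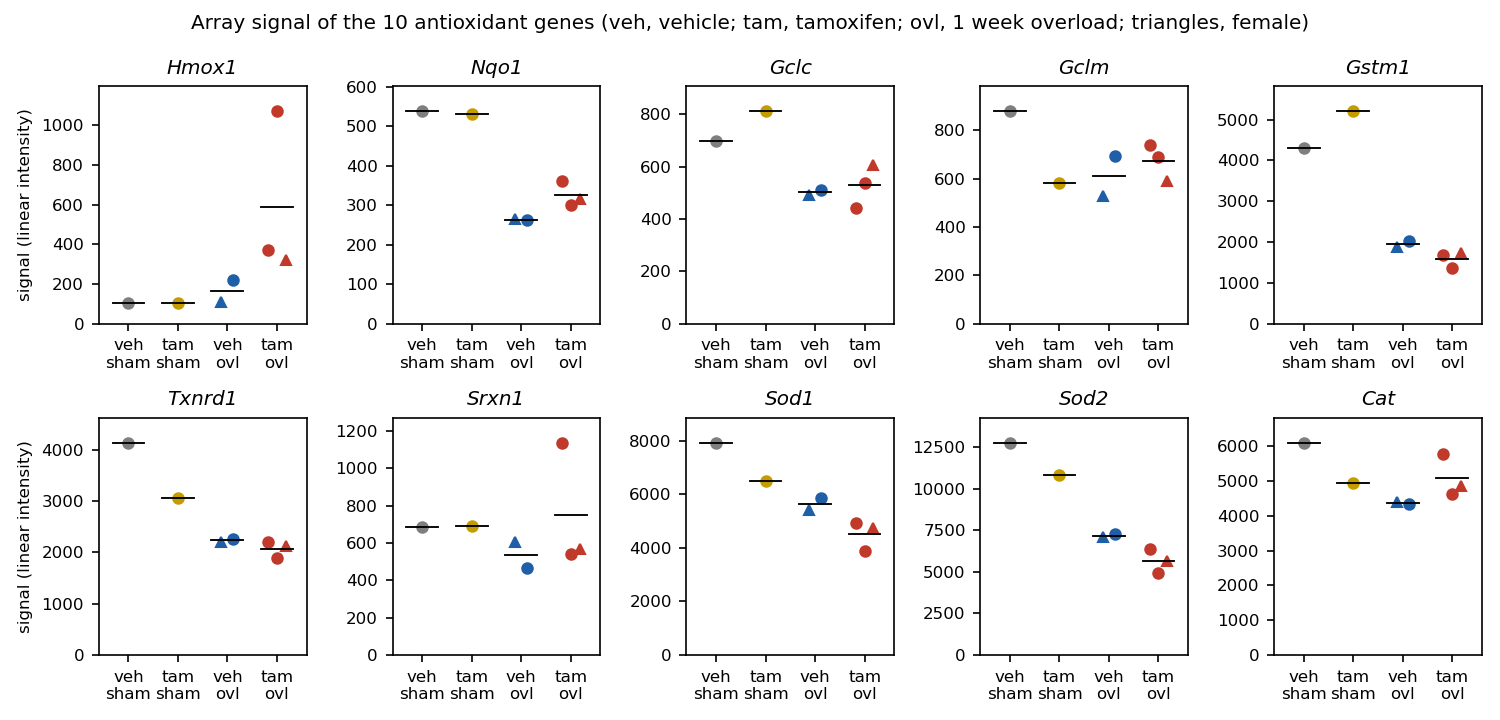
Signal (linear intensity, axis from 0) of the lead probe set of each gene on the 7 arrays, by group; black lines are group means and triangles are female mice. Hmox1 lies near 102 on both sham arrays and reaches 1071 in tamoxifen overload, while Gstm1, Sod2, Nqo1 and Txnrd1 are lower on every overload array than on either sham array.

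Hmox1 encodes haem oxygenase 1, which opens haem into biliverdin, carbon monoxide and iron. Its signal was 102 in vehicle sham and 102 in tamoxifen sham. In vehicle overload it was 108 and 221, and in tamoxifen overload 369, 1071 and 321. All 5 overload arrays lay above both sham arrays, but vehicle overload replicate 1 by very little, and the arrays spread over a wider range than for any other of the 10 genes. The log2 difference was 1.86 ± 0.42 (SE; limma adjusted p = 0.0163). The call was lost without vehicle sham replicate 1 (difference 1.86), without vehicle overload replicate 2 (1.83) and without the sex term (1.44, limma adjusted p = 0.0594). Over all alternatives limma adjusted p ran from 5.41e-05 to 0.178.

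Hmox1 is also a gene of macrophages, which clear haem. The summed signal of 15 macrophage and monocyte markers was 6141 and 11186 in vehicle and tamoxifen sham, and 28550 to 46218 in overload. All 15 markers rose with overload, among them Lyz2 by 2.08 ± 0.16 and C1qb by 2.52 ± 0.18 (log2, SE). The vehicle overload arrays, with Hmox1 signals of 108 and 221, had macrophage sums of 29245 and 28550. The part of these cells in the Hmox1 difference was not tested.

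**Figure D2:**
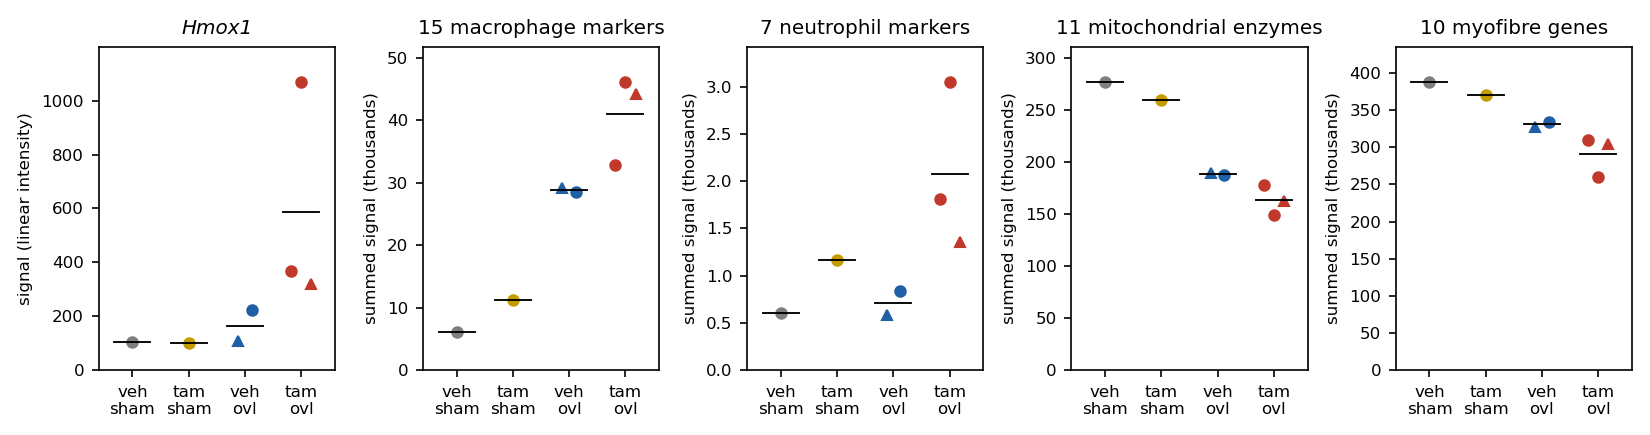
Hmox1 signal beside the summed signals (axes from 0) of fixed markers of macrophages, neutrophils, mitochondria and myofibres on each array; black lines are group means and triangles are female mice. Macrophage sums are at least 28550 on every overload array, and Hmox1 and the macrophage and neutrophil sums are all highest on tamoxifen overload replicate 2 (1071, 46218 and 3055).

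Gstm1, a glutathione S-transferase that couples glutathione to electrophiles, had the largest fall of the 10 genes. Its signal was 4304 in vehicle sham and 5201 in tamoxifen sham. In vehicle overload it was 1866 and 2020.1, and in tamoxifen overload 1677, 1373 and 1722. The groups were far apart, and the log2 difference was -1.45 ± 0.15 (limma adjusted p = 0.000691). The call was lost only when variances were fitted without the intensity trend (limma adjusted p = 0.0645), a setting in which 0 of the 10 genes were called. A second bright probe set of the gene fell by 1.56 ± 0.15 on the log2 scale, and the gene's dimmer ones stood at -0.86 and -1.48. Gstm1 has close relatives in the genome, and probes of this family can share signal, so the share of Gstm1 alone is uncertain. The paralogs Gstm2 and Gstm4 did not pass (both 0.04), and Gstm5 stood at -0.65 ± 0.19 (limma adjusted p = 0.046). Gstm3 (-0.52 ± 0.34), Gstm7 (-0.53 ± 0.37) and Gstm6 (-0.21 ± 0.88, with a mean level below background) did not pass either.

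Nqo1 reduces quinones in a single step that avoids reactive intermediates, and is often used as a readout of Nrf2. It read 538 and 532 in vehicle and tamoxifen sham. The vehicle overload signals were 266 and 262, and those of tamoxifen overload 361, 302 and 316. The 2 sham arrays lay close together, and every overload array was below them. The log2 difference was -0.85 ± 0.20 (adjusted p = 0.0171). This call was lost without either sham array or without vehicle overload replicate 2. The difference itself hardly moved in these fits: -0.85 without vehicle sham, -0.86 without tamoxifen sham and -0.82 without vehicle overload replicate 2.

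Txnrd1, the cytosolic thioredoxin reductase, uses NADPH to keep thioredoxin reduced. Its signal was 4128 in vehicle sham and 3051 in tamoxifen sham. In overload it was 2203 and 2256 with vehicle, and 2202, 1891 and 2118 with tamoxifen. Every overload array was below both sham arrays, which themselves lay apart. The log2 difference was -0.73 ± 0.14 (limma adjusted p = 0.00753). The call was lost without vehicle sham replicate 1 (difference -0.51) or vehicle overload replicate 2 (-0.77). The gene's other probe sets stood at -0.64 and -0.76, the first of which passed.

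Gclc and Gclm are the catalytic and the modifier subunit of glutamate-cysteine ligase, which makes the first product on the way to glutathione. Gclc read 699 and 811 in sham, 491 and 511 in vehicle overload and 442, 536 and 606 in tamoxifen overload. The groups did not overlap, and the log2 difference of -0.62 ± 0.18 was just inside the threshold (limma adjusted p = 0.0435). It was lost in 12 of 17 alternatives, including the removal of any single array (adjusted p from 0.0578 to 0.184). The gene's second probe set stood at -0.21 ± 0.16 and did not pass.

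Gclm read 878 in vehicle sham but 583 in tamoxifen sham. Its overload signals of 529 and 694 with vehicle, and 737, 691 and 591 with tamoxifen, lay around these values. The log2 difference was -0.03 (95% interval from -0.39 to 0.32), so the 2 subunits of the enzyme had different results, a difference that was not itself tested. Srxn1, sulfiredoxin, repairs overoxidised peroxiredoxins. It read 688 and 691 in sham, 604 and 466 in vehicle overload and 1136, 544 and 567 in tamoxifen overload. A single array, tamoxifen overload replicate 1, stood above the rest, and the log2 difference was -0.13 (95% interval from -0.88 to 0.62).

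**Figure D3:**
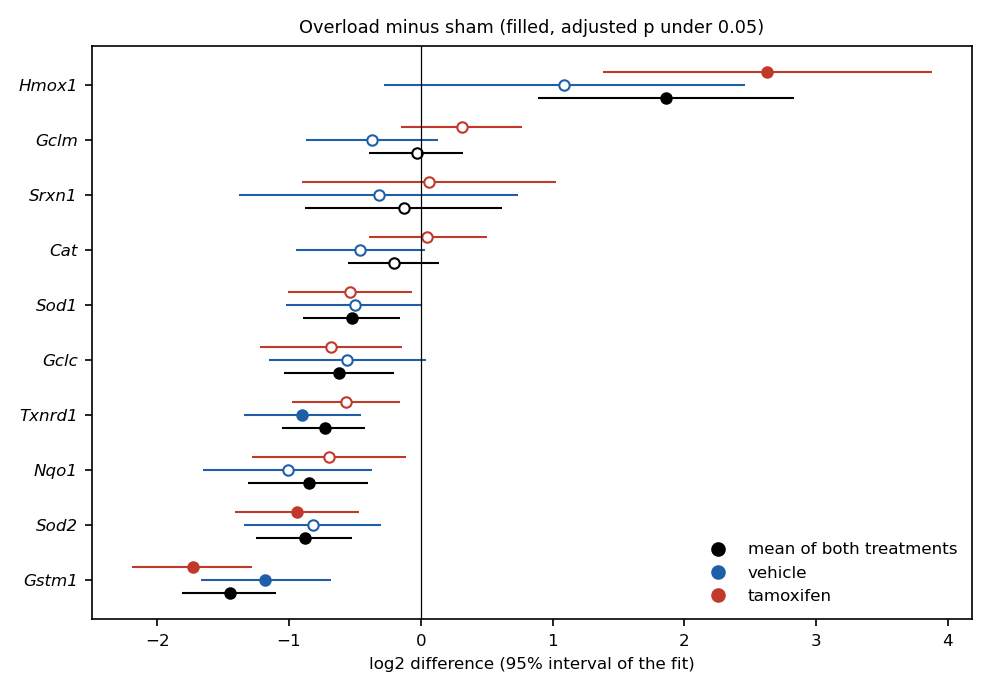
Log2 difference between overload and sham with the 95% interval of the limma fit, for the mean of both treatments (black), vehicle (blue) and tamoxifen (red); filled points passed an adjusted p under 0.05. Hmox1 stands alone on the right (1.86 for the mean) and Gstm1 lies furthest left (-1.45).

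The superoxide dismutases and catalase were bright genes. Sod2, the manganese enzyme of the mitochondrial matrix, read 12742 and 10819 in vehicle and tamoxifen sham. In vehicle overload its signal was 7085 and 7266, and in tamoxifen overload 6389, 4929 and 5649.5. No overload array reached the sham level. The log2 difference was -0.88 ± 0.16 (limma adjusted p = 0.00641). The call was lost without vehicle overload replicate 2, where the difference was -0.9.

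Genes of mitochondrial enzymes fell with it. Of 11 measured, 10 were called lower, with a median difference of -0.61. Their summed signal was 277050 and 259589 in sham, 188883 and 187395 in vehicle overload and 148996 to 177759 in tamoxifen overload. None of 10 myofibre genes was called by limma (median -0.32), and their sum went from 370982 and 388528 in sham to between 260218 and 333889 in overload. After quantile normalization 3 of the 11 mitochondrial genes were still called lower, and the myofibre median came to -0.04. With median centring all 11 were called lower (median -0.98), and the myofibre median was -0.68 with 0 called. The part of these shifts in the Sod2 difference was not tested.

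Sod1, the copper and zinc enzyme of the cytosol, read 7916 and 6512 in sham. It read 5406 and 5845 in vehicle overload and 4941, 3866 and 4751 in tamoxifen overload. The arrays did not overlap, but the log2 difference of -0.52 ± 0.16 barely passed (limma adjusted p = 0.0484). It was lost in 12 of 17 alternatives, including removal of a sham array, of a vehicle overload array or of the female tamoxifen overload array (replicate 3). With the mean of its probe sets the value was -0.13 (adjusted p = 0.779). Cat, catalase, read 6095 and 4933 in sham, 4395 and 4331 in vehicle overload and 5775, 4630.3 and 4857 in tamoxifen overload. Tamoxifen sham lay among the overload arrays, and the log2 difference was -0.20 (95% interval from -0.55 to 0.14; adjusted p = 0.385).

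Where a gene has several probe sets, they showed how far a result rests on the lead one. With each of the array's probe sets that has a single symbol tested by itself, 1 of the 28 was called higher and 10 lower. Those of Sod2 were unequal: -1.77 ± 0.19 and -1.85 ± 0.21 in 2 dimmer probe sets, and -0.33 ± 0.16, not called, in a bright one. For Sod1, whose lead probe set gave adjusted p = 0.0589 in this fit, the next brightest stood at 0.08 ± 0.15 and others at 0.15 and 0.73. Its dimmest probe set (-1.08 ± 1.06) was below background on every array, and the mean of probe sets given above includes it. Both probe sets of Cat (-0.20 and -0.26) and all those of Srxn1 (from -0.43 to 0.16) did not pass. Hmox1 and Nqo1 have 1 probe set each.

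**Figure D4:**
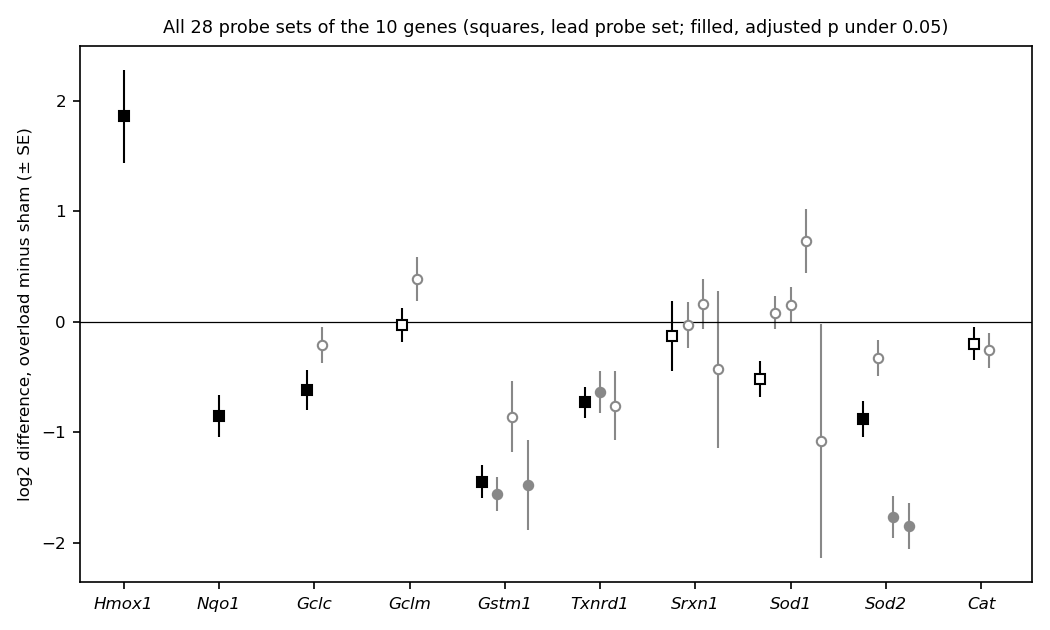
Log2 difference between overload and sham (± SE) for all 28 probe sets, by gene; squares are the lead probe sets and filled symbols passed an adjusted p under 0.05 over all probe sets. The probe sets of Sod2 range from -1.85 to -0.33, and those of Sod1 lie on both sides of 0.

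Each treatment was then taken by itself. With vehicle, Gstm1 fell by 1.18 ± 0.22 and Txnrd1 by 0.90 ± 0.19 on the log2 scale (limma adjusted p = 0.0163 and 0.0296), and the other 8 genes did not pass. Over all genes 6.35% were called higher and 2.44% lower in this comparison (8.79% in either direction). With tamoxifen, Hmox1 rose by 2.63 ± 0.54 (adjusted p = 0.0169), while Gstm1 fell by 1.73 ± 0.20 and Sod2 by 0.94 ± 0.21 (adjusted p = 0.00212 and 0.0207), against 9.98% called higher and 4.9% lower over all genes (14.9% in either direction). Hmox1 with vehicle stood at 1.09 ± 0.59 (adjusted p = 0.317), Sod2 at -0.82 ± 0.22 and Nqo1 at -1.01 ± 0.28 (0.0628 and 0.0629). For Hmox1 the plain mean log2 levels were 7.28 in vehicle overload and 6.69 in vehicle sham. That gap is smaller than the fitted difference, which includes the sex term (-0.99 ± 0.42, not called). With vehicle, Gstm1 and Txnrd1 lost their calls without vehicle overload replicate 2 (differences -1.39 and -0.96), and Txnrd1 also without either female array. With tamoxifen, Sod2 lost its call without 1 of the vehicle overload arrays or the female tamoxifen overload array, with a difference of -0.95 in each of these fits.

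The difference between treatments in the response to overload was tested as an interaction. None of the 10 genes passed with limma (lowest adjusted p = 0.856; 1 gene at an unadjusted p under 0.05, Gclm, at 0.68 ± 0.28), and 0 of all genes were called (0%; 1021 at an unadjusted p under 0.05). For Hmox1 the interaction was 1.54 with a 95% interval from -0.23 to 3.31, and for Gstm1 -0.56 (from -1.20 to 0.08).

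Tamoxifen against vehicle in overloaded muscle (3 against 2 arrays) asks what changed when satellite cells were meant to be depleted. None of the 10 genes was called by limma, nor was any gene of the array (0%; 1932 of all genes and 1 of the 10 had an unadjusted p under 0.05). Hmox1 was 2.89-fold higher with tamoxifen, a log2 difference of 1.53 ± 0.42 (95% interval from 0.56 to 2.5; adjusted p = 0.391, or 0.0108 to 0.942 over the alternatives). All 3 tamoxifen arrays, at 321 to 1071, exceeded the vehicle arrays at 108 and 221; over all genes 16.9% lay apart in this direction. Without tamoxifen overload replicate 1 the difference was 1.92 and passed (adjusted p = 0.0108), in a fit that called 227 genes in all. Without tamoxifen overload replicate 2 it was 1.15.

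Like Hmox1, the sums of neutrophil and macrophage markers were higher on all 3 tamoxifen overload arrays than on both vehicle overload arrays. The summed signal of 7 neutrophil markers, 6 of them above background on average, was 584 and 832 in vehicle overload and 1815, 3055 and 1361 in tamoxifen overload, and 608 and 1167 in vehicle and tamoxifen sham. The macrophage sum was 29245 and 28550 with vehicle and 32836, 46218 and 44220 with tamoxifen. Hmox1 and both sums were highest on tamoxifen overload replicate 2, but replicate 3, with the lowest Hmox1 of the 3 (321), had a macrophage sum of 44220. This was not particular to immune markers. The smooth muscle and pericyte sum was 24375 and 19775 with vehicle and 25305 to 28669 with tamoxifen. That sum and the endothelial one (8198) were also highest on tamoxifen overload replicate 2. None of these markers passed the test between treatments, and their part in the Hmox1 values was not tested.

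The other 9 genes differed less between treatments in overload. Nqo1 (0.30) and Cat (0.21) were higher on all 3 tamoxifen arrays than on both vehicle arrays, and Sod2 (-0.35), Sod1 (-0.32), Gstm1 (-0.29) and Txnrd1 (-0.11) lower on all of them, where 12.6% of all genes lay apart in that direction. The 95% intervals reached from -0.72 to 0.01 for Sod2, from -0.68 to 0.05 for Sod1 and from -0.64 to 0.07 for Gstm1. Gclc and Gclm both stood at 0.09 and Srxn1 at 0.39 (95% interval from -0.36 to 1.14). The myofibre and mitochondrial sums were also lower on all 3 tamoxifen overload arrays.

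The sham arrays, 1 of each treatment, were set side by side without a test. Hmox1, Nqo1 and Srxn1 differed by at most 0.02 on the log2 scale. The largest gaps were in Gclm (-0.59, tamoxifen lower) and Txnrd1 (-0.44), and Gstm1 stood at 0.27. Among genes above background the central 95% of such gaps ran from -0.77 to 1.19. Both sham arrays are of males, so the sex term rests on the 5 overload arrays (2 female, 3 male). Between females and males none of the 10 genes passed with limma (lowest adjusted p = 0.98), while 0.0495% of all genes did (0.033% higher and 0.0165% lower in females). Of the 10, 1 had an unadjusted limma p under 0.05, Hmox1, at -0.99 ± 0.42.

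Further genes of the network were grouped by role, with counts from overload against sham as above. Scaling bears on these counts: with median centring the list medians dropped by about the shift of all genes, and those of glutathione supply (from 0.21 to -0.15), NADPH (from 0.36 to -0.01) and haem and iron (from 0.11 to -0.25) turned negative. Of 13 genes that make up or control Nrf2 2 rose and 2 fell, and 8 were called lower after centring. Nfe2l2 read 2698 and 2441 in sham and 1943 to 2642 in overload (-0.26 ± 0.13, adjusted p = 0.218). Keap1 read 1468 and 1221 in sham and 758 to 1063 in overload, below sham on every array, but did not pass (-0.55 ± 0.18, adjusted p = 0.061). Bach1, a repressor that competes with Nrf2 and represses Hmox1, stood at -0.24 ± 0.15 (adjusted p = 0.30). After median centring all 3 passed as lower (-0.62, -0.91 and -0.61). Dpp3, which binds Keap1, rose by 1.24 ± 0.15. Cul3, the ubiquitin ligase scaffold to which Keap1 brings Nrf2, fell by 0.76 ± 0.14 on the log2 scale, and Maff, a small Maf partner, by 1.85 ± 0.51 with overlapping arrays; Maff lost its call without either sham array and, as Cul3 did, without vehicle overload replicate 2. The remaining gene that rose, Rbx1, a part of the same ligase, had a mean level below background and is named here after its values were seen.

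Of 17 genes listed as glutathione supply, recycling and peroxidases, 3 were called higher and 1 lower, but 2 higher and 5 lower after median centring. Gpx8 and Gpx7, peroxidases of the endoplasmic reticulum, rose by 2.09 ± 0.17 and 1.33 ± 0.18, and Gpx1, the abundant cytosolic enzyme, by 0.77 ± 0.14. Gpx1 did not pass after median centring (0.41) or without vehicle overload replicate 2. Chac1, which degrades glutathione, was 4.27-fold lower, with signals of 1169.5 and 2038 in sham and 288 to 530 in overload. Of 20 glutathione S-transferases 2 rose and 4 fell. The membrane-bound Mgst1 and Mgst3 fell by 1.21 ± 0.16 and 0.82 ± 0.17 on the log2 scale. Gstt3 rose by 0.90 ± 0.23 but lost its call in 7 alternatives, among them without either sham array and without replicate 2 of either overload group. Mgst2 was above background on 1 of 2 sham arrays (5.6 and 88.9, against 68.7 to 113 in overload), and its call was lost without vehicle sham. Mgst3 lost its call without vehicle sham or vehicle overload replicate 2.

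Among thioredoxins, peroxiredoxins and sestrins 3 of 15 rose and 4 fell (2 and 6 after median centring). Prdx4, the peroxiredoxin of the endoplasmic reticulum, rose by 1.62 ± 0.18, Sesn3 by 1.38 ± 0.17 and Txn1, the substrate of Txnrd1, by 0.90 ± 0.15. Thus Txn1 (3459 and 3863 in sham, 5950 to 7539.8 in overload) and its reductase were called in opposite directions. Txn1 did not pass after median centring (0.53) or without vehicle overload replicate 2. Msrb2, a mitochondrial methionine sulfoxide reductase, fell by 1.04 ± 0.22 on the log2 scale, and lost its call without vehicle sham.

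Of 11 genes listed for the supply of NADPH, the reducing power of these systems, 4 rose and 4 fell. The list also holds Pgls, Taldo1 and Tkt, pentose phosphate enzymes that do not make NADPH themselves. Tkt (0.86 ± 0.24) is among those that rose, so the counts are not counts of NADPH producers alone. Pgd, of the pentose phosphate pathway, rose by 1.19 ± 0.15 and Me2 by 1.56 ± 0.28, the latter not without vehicle overload replicate 2. Idh2 and Me1 fell by 1.45 ± 0.15 and 1.29 ± 0.15 on the log2 scale, each lower on all 5 overload arrays. Of 13 genes of haem breakdown and iron storage 3 were called higher and 1 lower, but 2 higher and 3 lower after median centring. Blvrb, a biliverdin reductase, rose by 0.62 ± 0.18 but lost its call in 10 alternatives, among them without vehicle sham, each vehicle overload array, or tamoxifen overload replicate 2 or 3. The macrophage metal transporter Slc11a1 rose by 1.18 ± 0.24 and haptoglobin (Hp) by 1.09 ± 0.20, neither of them without vehicle sham or vehicle overload replicate 2. The arrays of Hp overlapped (239.8 and 565.4 in sham, 389.3 to 1116.5 in overload). The iron exporter Slc40a1 fell by 0.71 ± 0.16 on the log2 scale, but not without tamoxifen sham. The constitutive haem oxygenase Hmox2 stood at -0.30 and did not pass.

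**Figure D5:**
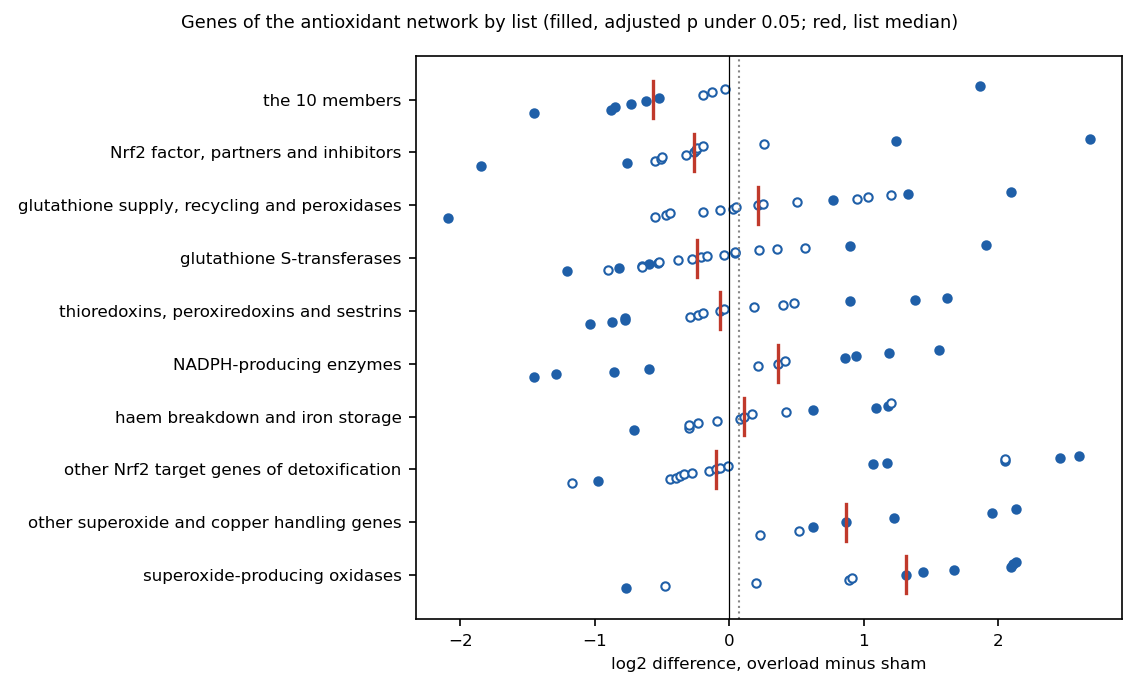
Log2 difference between overload and sham for every measured gene of the lists, 1 list per row; filled points passed an adjusted p under 0.05, red lines are list medians and the dotted line is the median of all genes (0.07). The median is -0.57 for the 10 antioxidant genes and 1.31 for the superoxide-producing oxidases.

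Of 17 other detoxification genes known as Nrf2 targets 5 were called higher and 1 lower (median -0.10), and 4 higher and 4 lower after median centring (median -0.46). Akr1b8, an aldo-keto reductase, rose 5.48-fold from signals of 180.0 and 231 to between 821 and 1554, and Cbr3, a carbonyl reductase, by 1.17 ± 0.21 on the log2 scale. Akr1c13 was below background on both sham arrays and was at least 1.49-fold higher in overload (4 of 5 arrays above background), against the background level. Abcc3, an export pump, was above background on 1 of 2 sham arrays (17.4 and 63.6, against 97.9 to 250 in overload) and lost its call without vehicle sham or vehicle overload replicate 2.

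Other genes of superoxide and copper handling rose, 5 of 7 with none lower. The metallothioneins Mt2 and Mt1, which bind zinc and copper, rose by 2.13 ± 0.13 and 1.95 ± 0.13. Sod3, the secreted superoxide dismutase, rose by 1.22 ± 0.24, with overlapping arrays and not without vehicle sham (236 and 538 in sham, 465 to 1443 in overload). Atox1, a copper chaperone, rose by 0.87 ± 0.16, not without vehicle overload replicate 2.

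Of 11 genes listed for superoxide production 6 were called higher and 1 lower (median 1.31), and 6 higher and 2 lower after median centring. Their summed signal overlapped, at 18067 and 18220 in sham and 15293 to 18899 in overload. Cybb and Cyba, the membrane subunits of the phagocyte oxidase, rose by 2.09 ± 0.29 and 2.13 ± 0.21. Ncf4, a cytosolic subunit, rose by 1.67 ± 0.25 and Nox4 by 2.11 ± 0.20. These 4 genes were higher on every overload array than on either sham array, with Cybb at 222 and 267 in sham and 815 to 1760 in overload. Most of this complex is known from phagocytes, whose 15 markers all rose as given above; their part in these differences was not tested.

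Likeness to the genes at both ends was measured as Pearson's r of the log2 levels over the 7 arrays, among 12295 genes above background on at least 5 arrays, as a description. Closest to Hmox1 were Wls (r = 0.988), Ifitm1 (0.986) and Aldh9a1 (0.984). Closest to Gstm1 were Mpst (0.996), Slc41a1 (0.995) and Tmem109 (0.994). The arrays fall into sham and overload, so genes that share that contrast reach a high r with few points.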

How the data were processed

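RNA of plantaris muscle was measured on 7 Affymetrix Mouse 430 2.0 arrays, 1 colour each, per the labels' protocols. The authors deposited linear intensities. The submitters' processing notes name Partek, with the probe set summary not given in the sources used here. Each array has a mean of 500 once the lowest and highest 2% of its values are dropped, so the deposited intensities were scaled per array and cannot show a change in total RNA.

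From these, log2(value + 1) was computed, which understates folds of dim genes. Of 45101 probe sets, 34945 have 1 symbol in GEO's platform annotation, 932 several, 9160 none and 64 are controls. Of 18193 genes, each represented by its brightest probe set, 18031 matched RefSeq by Entrez identifier, with all 10 described genes among them. A model with group and sex was fitted to all arrays with limma 3.58.1 in R 4.3.3, with an intensity trend, 2 residual degrees of freedom and a prior of 5.95. Tests are two-sided. The procedure was tested on simulated data. Alternatives changed scaling, pseudocount, filter, probe set choice, sex term, variance trend and the arrays used. Without 1 sham array, the mean comparison uses the other. Without vehicle overload replicate 2, its group holds 1 array, of a female. A call can be lost in such fits while the difference hardly moves.

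The 10 genes, the lists, comparisons and alternatives were chosen with earlier results of these data known. Named from each list were up to 4 called genes above background with the largest differences, with Nfe2l2, Keap1 and Bach1 always. Gstm2, Gstm3, Gstm4, Gstm5, Gstm6, Gstm7 and Hmox2 were added after their values were seen, as relatives of described genes. Pgls, Taldo1 and Tkt were also added then, to show what the NADPH list holds. Cell type markers named were taken from the 3 brightest of a list. Ckm, Acta1 and Pax7 were named as checks of tissue and depletion. The 3 genes most like the members with the largest rise and fall were also named.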

Additional observations from a re-analysis of the deposited data

How the results depend on the processing

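Alternatives were scaling, pseudocount, filter, probe set choice, sex term, variance trend and leaving out arrays. No paired analysis was possible because the labels number replicates in tamoxifen overload alone. Of the 10 genes 7 were called for overload against sham. With limma's variances fitted without the intensity trend 0 were, as for each treatment (0 genes of the array; 5234 at an unadjusted p under 0.05), and without trend and sex term 4, 0 with vehicle and 1 with tamoxifen. Leaving out 1 array gave 1 to 6 (1924 to 4695 of all genes, against 4163): 2 without vehicle sham, 4 without tamoxifen sham and 1 without vehicle overload replicate 2. With vehicle, where 2 of the 10 were called, it was 4 without the sex term, with median centring and without dim genes, 1 with male arrays and with quantile normalization, and 0 to 4 leaving out 1 array (371 to 2499 of all genes, against 1599). With tamoxifen 3 were called, 7 with median centring, and 2 to 5 leaving out 1 array (1954 to 3563 of all genes, against 2706). For tamoxifen against vehicle in overload leaving out 1 array gave 0 to 1. The interaction and the sex term called 0 of the 10 under every alternative run. No called value of the 10 genes changed sign.

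With every probe set tested, 6825 were called for the mean, 2431 with vehicle and 4337 with tamoxifen. These are counts among 34945 probe sets, not among the 18193 genes of the main fit, so the numbers cannot be set side by side. Over all genes the number called was more than 1.5 times from the main one also in other alternatives. With vehicle it was 1024 for male arrays, 962 with quantile normalization and 1051 with the mean of probe sets. Without trend and sex term it was 419 with vehicle and 671 with tamoxifen. The cause was not tested. A fit that lacks 1 female array is close to that of male arrays alone.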
